A study of Mus musculus with 28 samples.

Results

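Primary hepatocytes isolated from the adult mouse liver (pHep, 2 libraries) were compared with fibroblasts grown from mouse embryos (MEF, 3 libraries). In this series these are the cell type aimed at and the cell type started from, so the comparison measures the whole distance that a conversion of fibroblasts into hepatocytes would have to cover. The 5 libraries were chosen by their labels, out of 28 libraries of bulk RNA in 9 groups. The series as a whole examined fibroblasts, chemically induced endoderm progenitors and hepatocyte-like cells made from them, embryonic stem cells, stem cell-derived progenitors and these hepatocytes. The pHep came from adult liver at passage 0 of mice with an Oct4-GFP transgene (CBA/CaJ X C57BL/6J). The MEF came from embryos at E13.5, were at passage 2, and descended from the same Oct4-GFP line crossed to 129Sv/Jae females. Both groups thus carry the transgene, a reporter that marks pluripotent cells, and they differ in strain, age, tissue and time in culture as well as in cell type, and these cannot be told apart. Neonatal dermal fibroblasts (MNF, 2 libraries, passage 2), which carry the strain label of pHep, served as a second set of fibroblasts.

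Hepatocytes are the parenchymal cells of the liver. They secrete most plasma proteins, carry out detoxification, bile formation, the urea cycle and much of the body's glucose and lipid metabolism, and form a polarised epithelium with keratins, tight junctions and desmosomes. Their identity is held by a network of transcription factors that includes HNF4A, the FOXA proteins and C/EBP proteins. Fibroblasts are mesenchymal cells that secrete and remodel collagen-rich matrix, contract through actin stress fibres and keep a memory of body position in Hox and other homeobox genes.

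The pHep libraries held 2745369 and 2010637 expected counts and the MEF libraries 3548977, 5218402 and 3899399. Levels are given as counts-per-million (CPM) scaled by TMM, which serve to compare one gene between libraries. Levels of different genes are compared only as transcripts-per-million (TPM), which account for gene length. Across genes, which are not independent replicates, log2 CPM correlated at 0.700 to 0.727 over the 6 pairs of a pHep and a MEF library, at 0.933 between both pHep libraries and at 0.971 to 0.978 among MEF libraries. The lengths deposited with the counts imply reads of 49.5 and 50.5 bases in pHep and 74.5 bases in MEF, so read length moved with the group. Both pHep libraries had more of their TPM in few genes, with 28.0% and 22.6% in the top 50 genes in pHep against 21.1%, 20.4% and 19.04% in MEF. The labels give no sex. Xist, the RNA of the inactive X, had 2.51 and 1546 CPM in pHep and 408, 342 and 439 CPM in MEF, and the Y-linked gene Ddx3y had 64.3 and 0 CPM in pHep and 55.6, 43 and 50.3 CPM in MEF, so the pHep libraries differed from each other in both while every MEF library held both. No label says whether libraries came from separate animals or cultures, so p-values measure only the spread between samples, pooled over the 9 groups of the fit. Floors and counting intervals cover counting error alone, whereas intervals of a log2 fold change come from the fit and include the spread between libraries.

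The label of pHep was checked against hepatocyte genes, and that of MEF against fibroblast genes. Alb, the gene of serum albumin, had 18967 and 11649 CPM in pHep and 0, 0.851 and 0 CPM in MEF, and Hnf4a, a nuclear receptor that defines hepatocytes, had 623 and 461 CPM in pHep and 0 CPM in every MEF library. Col1a1, the main chain of type I collagen, had 7.1 and 143 CPM in pHep and 14777, 18533 and 15079 CPM in MEF, and Thy1, a fibroblast surface glycoprotein, had 0.418 and 1.02 CPM in pHep and 710.5, 388 and 706 CPM in MEF. In all 4 genes the groups lay far apart, in the direction of the labels. Some defining genes of mature hepatocytes were low or without counts in pHep. Cyp7a1 and Cyp8b1, enzymes that set the amount and kind of bile acids, had 0 counts in all 5 libraries, which allows up to 0.689 CPM in pHep and 0.263 CPM in MEF (3 counts over a group). Slc10a1, the bile acid importer, had 1.67 and 2.04 CPM in pHep and 0 CPM in every MEF library, and Cyp2e1, an ethanol-oxidising P450, had 23 and 2.04 CPM in pHep and 0 CPM in every MEF library. Both were too low in the series to be tested. Cyp7a1, Cyp8b1 and Slc10a1 were chosen after their values were seen.

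**Figure D1:**
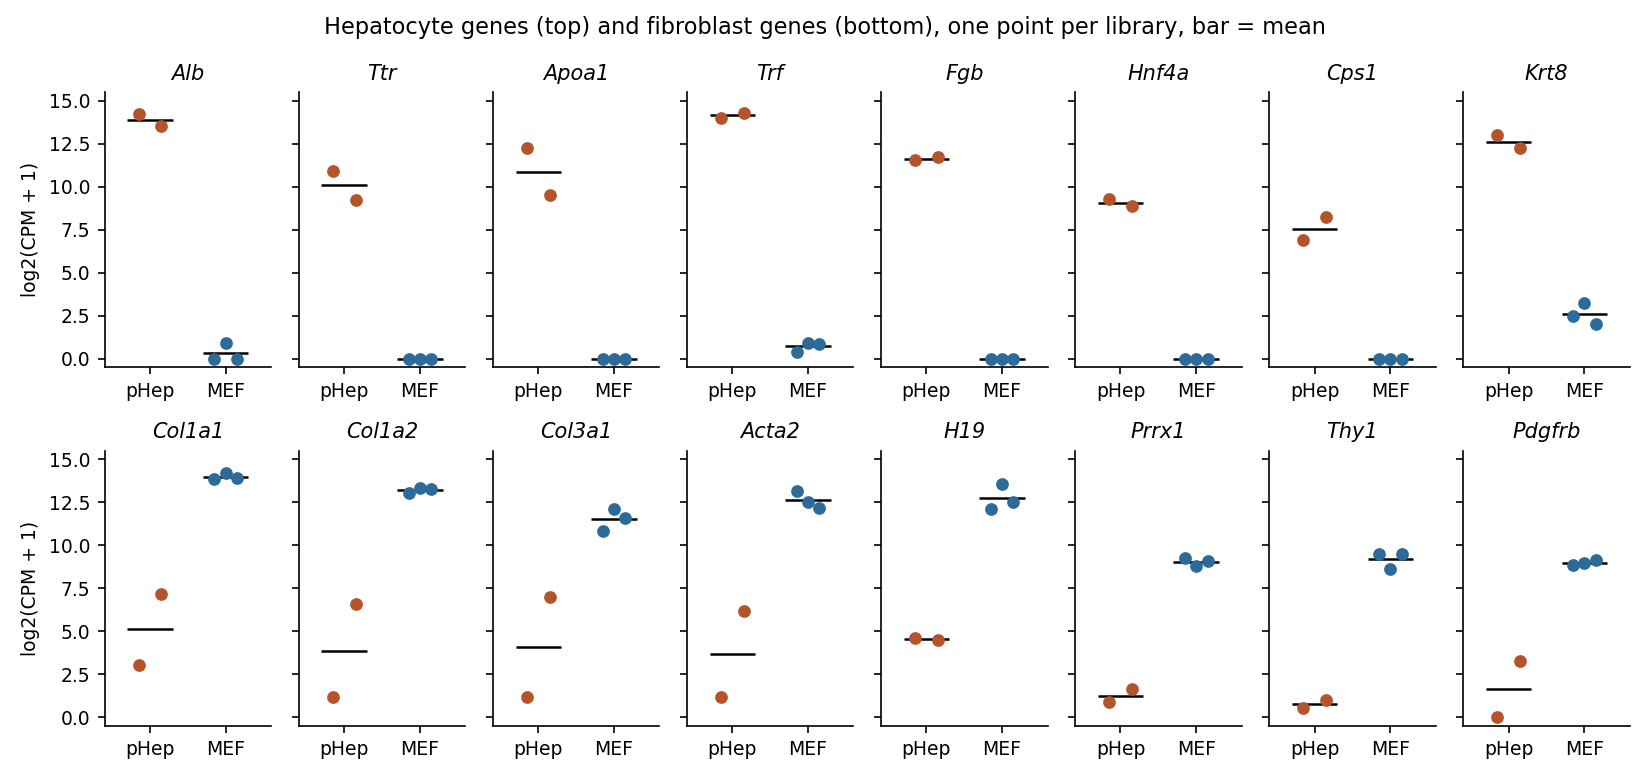
Level of 8 hepatocyte genes (top) and 8 fibroblast genes (bottom) as log2(CPM + 1), one point per library, pHep left and MEF right, with the bar at the mean of the log values. The groups do not overlap in any of the 16 genes, and in Col1a1, Col1a2, Col3a1 and Acta2 the point of pHep 2 lies well above that of pHep 1.

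Of 31673 genes in the table, 16061 had enough counts to be tested with edgeR, and calls required both a 2-fold change and an adjusted p (Benjamini-Hochberg) below 0.05. In pHep 2731 genes were higher (17% of those tested) and 2768 lower (17.2%), so that 34.2% of the genes differed. The rises and falls were nearly equal in number, and the median log2 fold change over all tested genes was −0.03. Where a group had no counts, a fold was bounded by a floor of 3 counts over that group, which is 0.689 CPM in pHep and 0.263 CPM in MEF. By fold or bound, 852 genes were at least 16-fold higher and 658 at least 16-fold lower in pHep, and 155 rises and 43 falls passed 256-fold. The lower floor of MEF lets a rise reach a bound at a lower level than a fall. No count was found in MEF for 349 of the genes that rose, and none in pHep for 403 of those that fell. Most of the transcriptome was shared, with 10652 genes at 1 TPM or more in all 5 libraries. Another 414 genes reached 1 TPM in both pHep libraries with 0 counts in MEF, and 367 did so in all MEF libraries with 0 counts in pHep. For 4367 genes (27.2%) the 95% interval of the difference lay within 2-fold.

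**Figure D2:**
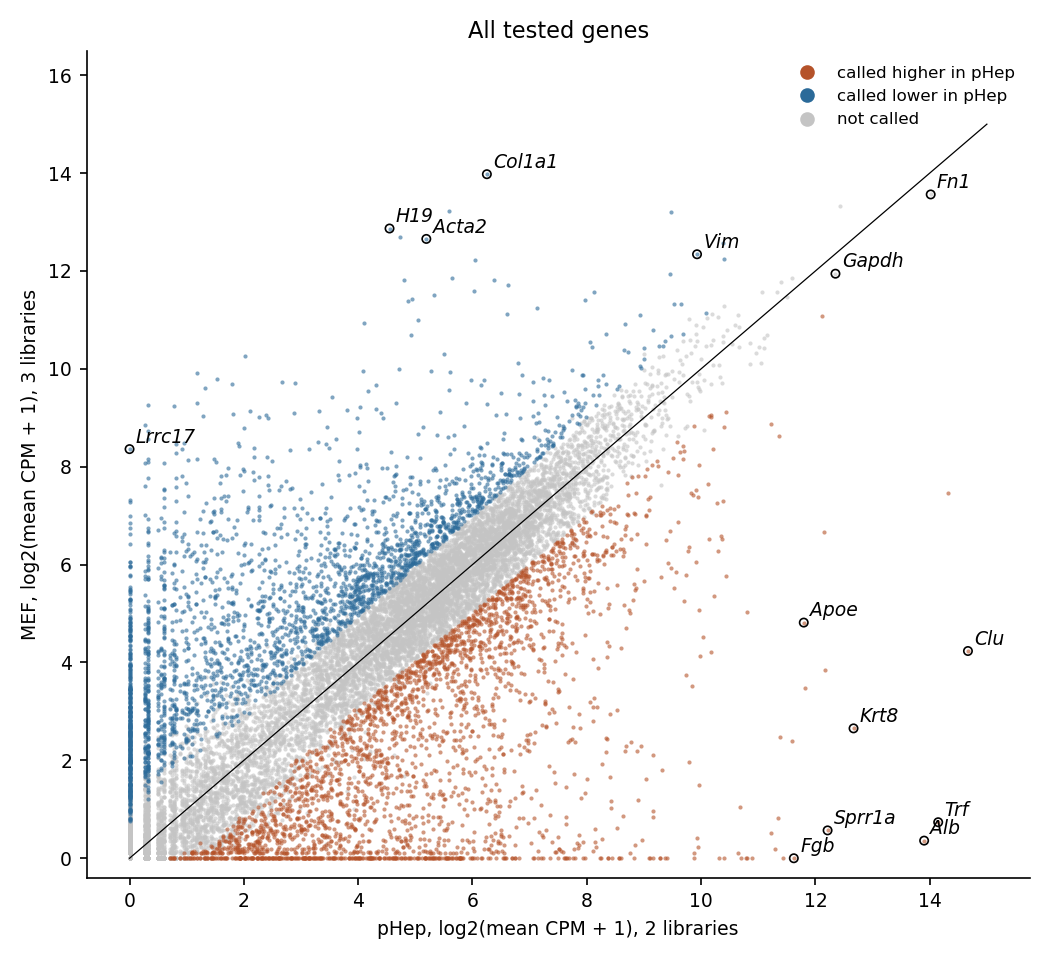
Mean CPM of each of the 16061 tested genes as log2(mean CPM + 1), in pHep on the horizontal axis and in MEF on the vertical axis, coloured by call, with the line of equal levels. Genes on the axes lack counts in one group, such as Fgb in MEF and Lrrc17 in pHep, while Gapdh and Fn1 lie near the line among the most abundant genes of both.

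The largest rises by fitted log2 fold change were almost all in secreted liver proteins. Fgb, the beta chain of fibrinogen (chr3:83040141-83049863, minus strand), had 2990.5 and 3312 CPM in pHep and 0 CPM in every MEF library and was at least 11994-fold higher (edgeR adjusted p = 3.32e-07). Apoa1, the main protein of high-density lipoprotein (chr9:46228580-46230466, plus strand), had 4791 and 729 CPM in pHep and 0 CPM in every MEF library and was at least 10504-fold higher (edgeR adjusted p = 6.49e-06). Both pHep libraries were close in Fgb, whereas in Apoa1 pHep 1 was the higher. Igfbp1, a hepatic carrier of insulin-like growth factors (chr11:7197782-7202546, plus strand), had 2999 and 806 CPM in pHep and 0 CPM in every MEF library and was at least 7241-fold higher. Lcn2, which encodes the acute phase protein lipocalin 2 (chr2:32384633-32388252, minus strand), had 944 and 2612 CPM in pHep and 0 CPM in every MEF library and was at least 6767-fold higher. Ahsg, the gene of fetuin A (chr16:22891277-22899449, plus strand), had 1940.5 and 1598 CPM in pHep and 0 CPM in every MEF library and was at least 6734-fold higher. None of these 5 genes had a single count in MEF. Ranked by fitted log2 fold change, which depends on the prior count where a group has no counts, the other 7 of the 12 largest rises were those of Mup7, Fga, Ttr, Alb, Serpina1b, Serpina1c and Serpina3k. A bound cannot be ranked against a measured fold, and Trf and Gc, which had counts in MEF, had measured folds above these bounds. Mup7, one of the major urinary protein genes, had 3299.6 and 4.08 CPM in pHep and 0 CPM in every MEF library (at least 6287-fold higher, edgeR adjusted p = 0.00918), so its rise rested on pHep 1, and it was too low to be tested without that library. Mup, Serpina1, Saa, Cyp2c, Ugt2b and MHC class I genes have near-identical copies among which estimated counts can be split wrongly, so values of single copies are uncertain.

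The most abundant transcripts showed the same contrast on the TPM scale. Clu, the gene of the secreted chaperone clusterin, had 25953 and 24648 TPM in pHep and 7.97, 29.9 and 20.5 TPM in MEF, and Trf, the plasma iron carrier transferrin, had 15178 and 22064 TPM in pHep and 0.76, 1.45 and 2.75 TPM in MEF. They were followed in pHep by Alb, with 14800 and 11138 TPM in pHep and 0, 0.81 and 0 TPM in MEF. In all 3 genes MEF lay far below pHep. In MEF the top gene was Eef1a1, a translation elongation factor, with 6019 and 5228 TPM in pHep and 13001, 12772 and 12662 TPM in MEF. The noncoding growth regulator H19 was among the top in MEF, with 18.2 and 24.1 TPM in pHep and 4057, 11868 and 6194 TPM in MEF. Sprr1a, a cornified envelope gene of squamous epithelium, stood among the 10 most abundant genes of pHep, with 13106 and 7737 TPM in pHep and 0.79, 2.16 and 0.75 TPM in MEF. Of the 10 most abundant genes in each group only Gapdh, a glycolytic enzyme gene, appeared in both.

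All secreted plasma proteins that could be tested rose. Of 34 members, 32 were tested, of which 32 rose and 0 fell. Their median log2 fold change was 12.004 (10.01 with members that lack counts in a group set at their bound), against −0.03 over all tested genes. In MEF 18 members had 0 counts, and such genes could be tested only through counts in other groups, so a fall was not open to them. The same holds for members without counts in MEF in the lists that follow. In reverse, a rise was not open to members without counts in pHep. Together the 34 members made up 5.39 and 5.93% of all TPM in pHep and 0.00209, 0.00432 and 0.00265% in MEF. Trf had 16335 and 19975 CPM in pHep and 0.327, 0.851 and 0.82 CPM in MEF (log2 fold change 14.62 ± 0.99, edgeR adjusted p = 2.88e-08). Hpx, which binds free heme, had 2337 and 2427 CPM in pHep and 0.327, 0.426 and 0.547 CPM in MEF (log2 fold change 12.33 ± 0.57). Both pHep libraries agreed closely in Hpx, and MEF showed only traces. Gc, the vitamin D carrier, had 1159 and 2039 CPM in pHep and 0, 0.213 and 0 CPM in MEF (22542-fold higher, 95% counting interval 3186 to 701510). Ttr, the carrier of thyroid hormone and retinol-binding protein, had 1943 and 593 CPM in pHep and 0 CPM in every MEF library (at least 4826-fold higher). Hp, haptoglobin, had 1038 and 3986 CPM in pHep and 0, 0.426 and 0 CPM in MEF and Cp, the copper oxidase ceruloplasmin, had 1539 and 4629 CPM in pHep and 2.94, 6.38 and 3.55 CPM in MEF, and both were higher in pHep 2. The alpha-1-antitrypsin copies went the other way, with 1775 and 92.3 CPM in pHep and 0 CPM in every MEF library for Serpina1c, so pHep 1 was the higher. Of the 32 members tested, 7 were over 4-fold higher in pHep 1 than in pHep 2 and 1 was over 4-fold higher in pHep 2.

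Apolipoproteins and the machinery of lipoprotein assembly followed. Of 19 tested members, 16 rose and 1 fell, with a median log2 fold change of 8.35 (6.22 with members that lack counts in a group set at their bound). Apob, the structural protein of very low-density lipoprotein, had 2492 and 2732 CPM in pHep and 0.327, 0.851 and 1.09 CPM in MEF (log2 fold change 11.65 ± 0.78, edgeR adjusted p = 4.25e-08). Mttp, which loads lipid onto it, had 258 and 212 CPM in pHep and 2.94, 7.87 and 5.19 CPM in MEF (log2 fold change 5.40 ± 0.43). Apoe, a ligand for lipoprotein receptors that many cell types make, was present in both groups but had 3762 and 3348 CPM in pHep and 16, 30.2 and 35.3 CPM in MEF (log2 fold change 7.02 ± 0.54). Neither group overlapped the other in these 3 genes. Apoc2, the activator of lipoprotein lipase, had 815 and 423 CPM in pHep and 0 CPM in every MEF library (at least 2356-fold higher). Scarb1, the high-density lipoprotein receptor, had 94.8 and 111 CPM in pHep and 95.4, 97.7 and 92.9 CPM in MEF and was not called (95% interval of the log2 fold change -0.27 to 0.48).

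Coagulation and complement genes rose almost as uniformly. Of 33 tested members, 31 rose and 0 fell, with a median log2 fold change of 9.26 (6.79 with members that lack counts in a group set at their bound). In MEF 16 of the 34 members of the list had 0 counts, so a fall was not open to those. Fga, the alpha chain of fibrinogen, had 811 and 1884 CPM in pHep and 0 CPM in every MEF library (at least 5129-fold higher, edgeR adjusted p = 2.93e-07). C3, the central complement protein, had 1162 and 2109 CPM in pHep and 0.654, 1.49 and 1.09 CPM in MEF (log2 fold change 10.47 ± 0.73). Both genes were higher in pHep 2 than in pHep 1, and neither group came near the other. Mbl2, a lectin that starts the complement cascade, had 416 and 338 CPM in pHep and 0 CPM in every MEF library (at least 1434-fold higher). Serpinf2, the plasmin inhibitor, had 219 and 266 CPM in pHep and 0, 0.213 and 0.547 CPM in MEF (958-fold higher, 95% counting interval 312 to 4440). The 2 tested members that were not called were C1qb, a subunit of the first complement component made mainly by macrophages (0.835 and 2.55 CPM in pHep and 5.88, 4.68 and 7.38 CPM in MEF), and Masp1, a lectin pathway protease (32.2 and 58.1 CPM in pHep and 35.9, 31.7 and 30.6 CPM in MEF).

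Since the secreted proteins rose together, the promoters of these genes were read for short motifs. RefSeq promoters (GRCm38.p6, 250 bases before to 50 bases after the start) were found for 58 of the 79 members of the plasma protein, apolipoprotein, coagulation and complement lists that rose, and for 51 of the 77 members of the collagen, matrix and contractile lists that fell. The CArG box, bound by serum response factor at cytoskeletal genes and searched like the others on both strands, stood in 2 of the 58 (3.45%), in 4 of the 51 (7.84%) and in 535 of 32851 promoters in all (1.63%). The TATA box TATAAA stood in 17.2% of the 58, in 17.6% of the 51 and in 13.6% of all promoters. The CCAAT box, read as those letters, stood in 37.9%, 43.1% and 37.4%. The HNF4 site CAAAGTCCA was in none of either set and in 0.475% of all promoters. These shares are descriptions of letters in the windows, and binding was not measured.

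The 150 bases before the start site are shown for Alb with its CCAAT boxes and for Afp, the alpha-fetoprotein gene, with its TATA box, as examples of genes that rose, and for 2 genes that fell and carry a CArG box. Capitals mark only the motif named for each gene, and the CCAAT box reads ATTGG where it lies on the opposite strand. The stretches of Afp, Actg1 and Cnn2 also hold a CCAAT box, which is not marked. Afp belongs to the list of fetal genes and is not among the 58 promoters of secreted genes. Each sequence runs 5′ to 3′ on the strand of the gene and ends at the base before its start.
Alb, chr5:90460720-90460869, plus strand: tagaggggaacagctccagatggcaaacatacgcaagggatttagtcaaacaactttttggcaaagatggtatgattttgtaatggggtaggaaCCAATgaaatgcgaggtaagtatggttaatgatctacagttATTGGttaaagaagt
Afp, chr5:90490564-90490713, plus strand: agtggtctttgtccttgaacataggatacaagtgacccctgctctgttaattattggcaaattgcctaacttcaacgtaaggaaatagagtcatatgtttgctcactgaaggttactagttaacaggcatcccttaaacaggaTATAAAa
Actg1, chr11:120348496-120348645, minus strand: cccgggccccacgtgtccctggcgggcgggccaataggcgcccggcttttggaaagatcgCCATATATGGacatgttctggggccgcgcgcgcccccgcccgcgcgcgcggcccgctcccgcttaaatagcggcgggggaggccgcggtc
Cnn2, chr10:79988450-79988599, plus strand: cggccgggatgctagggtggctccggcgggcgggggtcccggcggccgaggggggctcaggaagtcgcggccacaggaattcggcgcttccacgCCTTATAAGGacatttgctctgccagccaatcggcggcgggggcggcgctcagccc
Counted back from the RefSeq start, the CCAAT boxes lay at −56 to −52 and at −15 to −11 in Alb, and the TATA box at −7 to −2 in Afp. That start lay 27 bases from the GENCODE start in Alb, 23 in Afp, 47 in Actg1 and 16 in Cnn2. The positions therefore depend on the start used. The CArG boxes lay at −90 to −81 in Actg1, a cytoplasmic actin gene, and at −56 to −47 in Cnn2, a calponin gene, both of which are described among the contractile genes.

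Most hepatocyte transcription factors rose as well. Of 28 members, 26 were tested, of which 18 rose and 1 fell, with a median log2 fold change of 6.18. Hnf4a was at least 2062-fold higher (edgeR adjusted p = 8.33e-08). Foxa3, a forkhead factor that opens liver chromatin, had 37.6 and 40.8 CPM in pHep and 0 CPM in every MEF library (at least 149-fold higher). Counts in MEF were 0 for both genes, and the pHep libraries lay close together. Onecut2, a cut-homeobox factor of liver and bile duct, had 116 and 168 CPM in pHep and 0, 1.06 and 0.273 CPM in MEF (log2 fold change 8.04 ± 0.62). Mlxipl, the carbohydrate-responsive factor ChREBP, had 113 and 74 CPM in pHep and 0, 0.213 and 0 CPM in MEF (1316-fold higher, 95% counting interval 194 to 43079). Nr1h3, the oxysterol receptor LXR alpha, had 45.5 and 31.6 CPM in pHep and 0.327, 0.426 and 0.82 CPM in MEF (log2 fold change 6.13 ± 0.59). Not every factor with a role in hepatocytes was called. Of the 3 uncalled factors given next, the groups overlapped in Cebpb but not in Xbp1 or Srebf1. Cebpb had 45.5 and 102 CPM in pHep and 70.9, 65.1 and 62.3 CPM in MEF (95% interval of the log2 fold change -0.67 to 0.96), Xbp1, a secretory pathway factor, had 201 and 179.5 CPM in pHep and 128, 119 and 135 CPM in MEF (95% interval of the log2 fold change 0.16 to 1.004) and Srebf1, a lipid synthesis factor, had 108 and 106 CPM in pHep and 128, 169 and 151 CPM in MEF (95% interval of the log2 fold change -0.83 to -0.13), and none of the 3 was called. The one factor that fell was Dbp, a clock-controlled bZIP gene with 0.418 and 0.51 CPM in pHep and 5.23, 4.26 and 3.01 CPM in MEF, chosen after its values were seen.

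Most detoxification genes that could be tested rose. Of 26 members of the cytochrome P450 list, 20 were tested, of which 19 rose and 1 fell. Their median log2 fold change was 8.49 (5.54 with members that lack counts in a group set at their bound). Cyp2e1 was among the members too low to test, and 20 members of the list had 0 counts in MEF. Cyp2c70, which makes muricholic acids in mice, had 250.6 and 139.8 CPM in pHep and 0 CPM in every MEF library (at least 743-fold higher, edgeR adjusted p = 1.09e-06). Cyp2d10 had 61 and 64.8 CPM in pHep and 0 CPM in every MEF library (at least 239-fold higher), and Por, the reductase that feeds electrons to all microsomal P450 enzymes, had 288 and 239 CPM in pHep and 116, 110.5 and 89.1 CPM in MEF (log2 fold change 1.33 ± 0.24). Por had counts in every MEF library, whereas Cyp2c70 and Cyp2d10 had none. Cyp1b1, an extrahepatic P450, was the member that fell, with 0 and 1.02 CPM in pHep and 176, 213 and 171 CPM in MEF (367-fold lower, 95% counting interval 114 to 3416, edgeR adjusted p = 9.03e-08). Of 33 conjugation and export genes, 29 were tested, of which 26 rose and 1 fell. Their median log2 fold change was 7.02 (4.62 with members that lack counts in a group set at their bound). In MEF 14 of the 33 had 0 counts, so a fall was not open to those. Aldh1a1, a retinal dehydrogenase, had 1828 and 3530.5 CPM in pHep and 1.63, 7.66 and 4.37 CPM in MEF (log2 fold change 9.12 ± 0.88). Abcc2, the canalicular exporter of conjugated bilirubin, had 328 and 329 CPM in pHep and 0 CPM in every MEF library (at least 1251-fold higher). Sult1a1, a phenol sulfotransferase, had 92.7 and 824 CPM in pHep and 0.327, 0 and 0.273 CPM in MEF (2291-fold higher, 95% counting interval 666 to 19900), so pHep 2 was far above pHep 1. Gstp1, a glutathione transferase, had 825 and 1429 CPM in pHep and 90.2, 91.9 and 89.4 CPM in MEF (log2 fold change 3.64 ± 0.21). Abcc1, a broadly expressed exporter of glutathione conjugates, fell and had 19.2 and 38.8 CPM in pHep and 237, 181 and 180.4 CPM in MEF (log2 fold change -2.79 ± 0.42, edgeR adjusted p = 6.89e-05).

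Most bile acid genes that could be tested rose. Of 14 tested members, 13 rose and 0 fell, with a median log2 fold change of 6.97 (4.33 with members that lack counts in a group set at their bound). Another 6 of the 20 members of the list were too low to test, Cyp7a1 and Cyp8b1 among them. In MEF 12 of the 20 had 0 counts, so a fall was not open to those. Acox2, which shortens the bile acid side chain in peroxisomes, had 74.3 and 195 CPM in pHep and 0 CPM in every MEF library (at least 512-fold higher, edgeR adjusted p = 3.65e-07). Cyp27a1, the sterol hydroxylase of the alternative pathway, had 59.7 and 68.9 CPM in pHep and 0.98, 0.426 and 1.64 CPM in MEF (log2 fold change 6.01 ± 0.49). Abcb4, the canalicular phospholipid exporter, had 40.5 and 70.9 CPM in pHep and 0.654, 0.851 and 0.273 CPM in MEF (log2 fold change 6.46 ± 0.60). Cyp7b1, the next enzyme of the alternative pathway, had 5.85 and 4.59 CPM in pHep and 2.61, 4.47 and 5.19 CPM in MEF and was not called (95% interval of the log2 fold change -1.22 to 1.91). Against MNF the list had 9 higher and 1 lower.

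Nitrogen metabolism differed in steps. Of 13 members, 12 were tested, of which 9 rose and 0 fell, with a median log2 fold change of 1.74. Cps1, the enzyme that commits ammonia to urea, had 116 and 296 CPM in pHep and 0 CPM in every MEF library (at least 784-fold higher, edgeR adjusted p = 8.27e-07), and Nags, which makes its activator, had 14.2 and 20.4 CPM in pHep and 0 CPM in every MEF library (at least 65.8-fold higher). Neither had a count in MEF. Arg1, which releases urea, had 11.3 and 114 CPM in pHep and 1.96, 0.638 and 1.09 CPM in MEF (log2 fold change 5.70 ± 0.83), so pHep 2 lay far above pHep 1. Ass1, which many cells use to recycle citrulline, had 266 and 204 CPM in pHep and 147, 122 and 167 CPM in MEF and was not called (95% interval of the log2 fold change -0.52 to 1.91). Of 30 tested amino acid catabolism genes, 27 rose and 0 fell, with a median log2 fold change of 5.71 (5.03 with members that lack counts in a group set at their bound). Cbs, which channels homocysteine into cysteine, had 51 and 104 CPM in pHep and 0.98, 0.638 and 0.273 CPM in MEF (log2 fold change 6.91 ± 0.68). Mat1a, the adult liver form of methionine adenosyltransferase, had 25.5 and 52 CPM in pHep and 0 CPM in every MEF library (at least 147-fold higher). Ftcd, of histidine breakdown, had 20 and 132 CPM in pHep and 0, 0.426 and 0 CPM in MEF (534-fold higher, 95% counting interval 110.1 to 3327), and Fah, the last enzyme of tyrosine breakdown, had 80.2 and 81.1 CPM in pHep and 30.7, 31.5 and 40.2 CPM in MEF (log2 fold change 1.24 ± 0.22). The median of log2 pHep 1 over pHep 2 in this list was −1.01, and 4 members were over 4-fold higher in pHep 2.

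Glucose and lipid metabolism separated the groups to unequal degrees. Of 19 tested gluconeogenesis and glycogen genes, 18 rose and 0 fell, with a median log2 fold change of 5.46 (4.14 with members that lack counts in a group set at their bound). Pcx, pyruvate carboxylase, had 190.5 and 171 CPM in pHep and 17.6, 23 and 19.7 CPM in MEF (log2 fold change 3.16 ± 0.24, edgeR adjusted p = 8.2e-08). Pygl, liver glycogen phosphorylase, had 236 and 192 CPM in pHep and 3.59, 3.19 and 6.56 CPM in MEF (log2 fold change 5.59 ± 0.42). Both genes had counts in every MEF library. Pklr, the liver pyruvate kinase, had 129 and 76 CPM in pHep and 0 CPM in every MEF library (at least 390.2-fold higher). Pck1, the cytosolic gate of gluconeogenesis, had 7.94 and 64.3 CPM in pHep and 0 CPM in every MEF library (at least 137-fold higher), so its level differed widely between the pHep libraries. Fatty acid oxidation rose by smaller amounts. Of 25 tested members, 19 rose and 0 fell, with a median log2 fold change of 1.38. Cpt1a, which readies long-chain fatty acids for entry into mitochondria, had 135 and 226 CPM in pHep and 47.7, 59.2 and 58.8 CPM in MEF (log2 fold change 1.71 ± 0.37, edgeR adjusted p = 0.00149). Hadha, a subunit of the mitochondrial trifunctional protein, had 204 and 264 CPM in pHep and 151, 169.6 and 142 CPM in MEF and was not called (95% interval of the log2 fold change 0.25 to 0.95).

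Cholesterol and fatty acid synthesis ran the other way. Of 28 tested members, 2 rose and 12 fell, with a median log2 fold change of -0.79. Fasn, fatty acid synthase, had 249 and 194 CPM in pHep and 573, 715 and 685 CPM in MEF (log2 fold change -1.57 ± 0.18, edgeR adjusted p = 5.06e-06). Scd2, a stearoyl-CoA desaturase, had 70.2 and 123 CPM in pHep and 1649, 2514 and 2535 CPM in MEF (log2 fold change -4.53 ± 0.35). The rises were Acacb, which makes the malonyl-CoA that restrains fatty acid oxidation (43.4 and 56.1 CPM in pHep and 2.94, 2.55 and 6.01 CPM in MEF), and Thrsp, a lipogenic gene (14.6 and 18.4 CPM in pHep and 0 CPM in every MEF library). Against MNF this list had 3 higher and 4 lower, so the falls were fewer with the other fibroblasts.

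Many genes of hepatocytes have a counterpart used elsewhere, and 24 such pairs were compared within each library by TPM. Most are isozymes or transporters, but Igf1/Igf2, Krt18/Vim, Cdh1/Cdh2 and Foxa3/Foxc2 are related or contrasting genes rather than forms of 1 enzyme. The hepatic form exceeded the other in both pHep libraries in 11 pairs and in all MEF libraries in 3. The other form was ahead in both pHep libraries in 11 pairs and in all MEF libraries in 19. In 7 pairs the order was reversed between the groups in every library, namely Pygl/Pygb, Cpt1a/Cpt1c, Scd1/Scd2, Igf1/Igf2, Krt18/Vim, Slc7a2/Slc7a1 and Foxa3/Foxc2. Pygl took 92.5 and 86% in pHep and 10.2, 3.02 and 6.15% in MEF of the TPM of both glycogen phosphorylases. Slc7a2, the arginine transporter form of liver, took 94.3 and 91.4% in pHep and 5.63, 11.2 and 20.3% in MEF of the TPM shared with Slc7a1. Scd1 took 84.9 and 55.1% in pHep and 13.7, 12.6 and 16.3% in MEF of the TPM shared with Scd2. In 10 pairs the form used elsewhere stayed ahead in every pHep and MEF library. Pklr took 7.83 and 10.9% in pHep and 0% in MEF of the TPM shared with Pkm, and Mat1a 5 and 11.4% in pHep and 0% in MEF of that shared with Mat2a. Slc2a2, the liver glucose transporter, took 1.24 and 30.4% in pHep and 0% in MEF of the TPM shared with Slc2a1. The hepatic form was called higher in 18 pairs and the other form lower in 11, and the hepatic share lay above all MEF libraries in both pHep libraries in 18 of the 23 pairs with a value in every library.

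**Figure D3:**
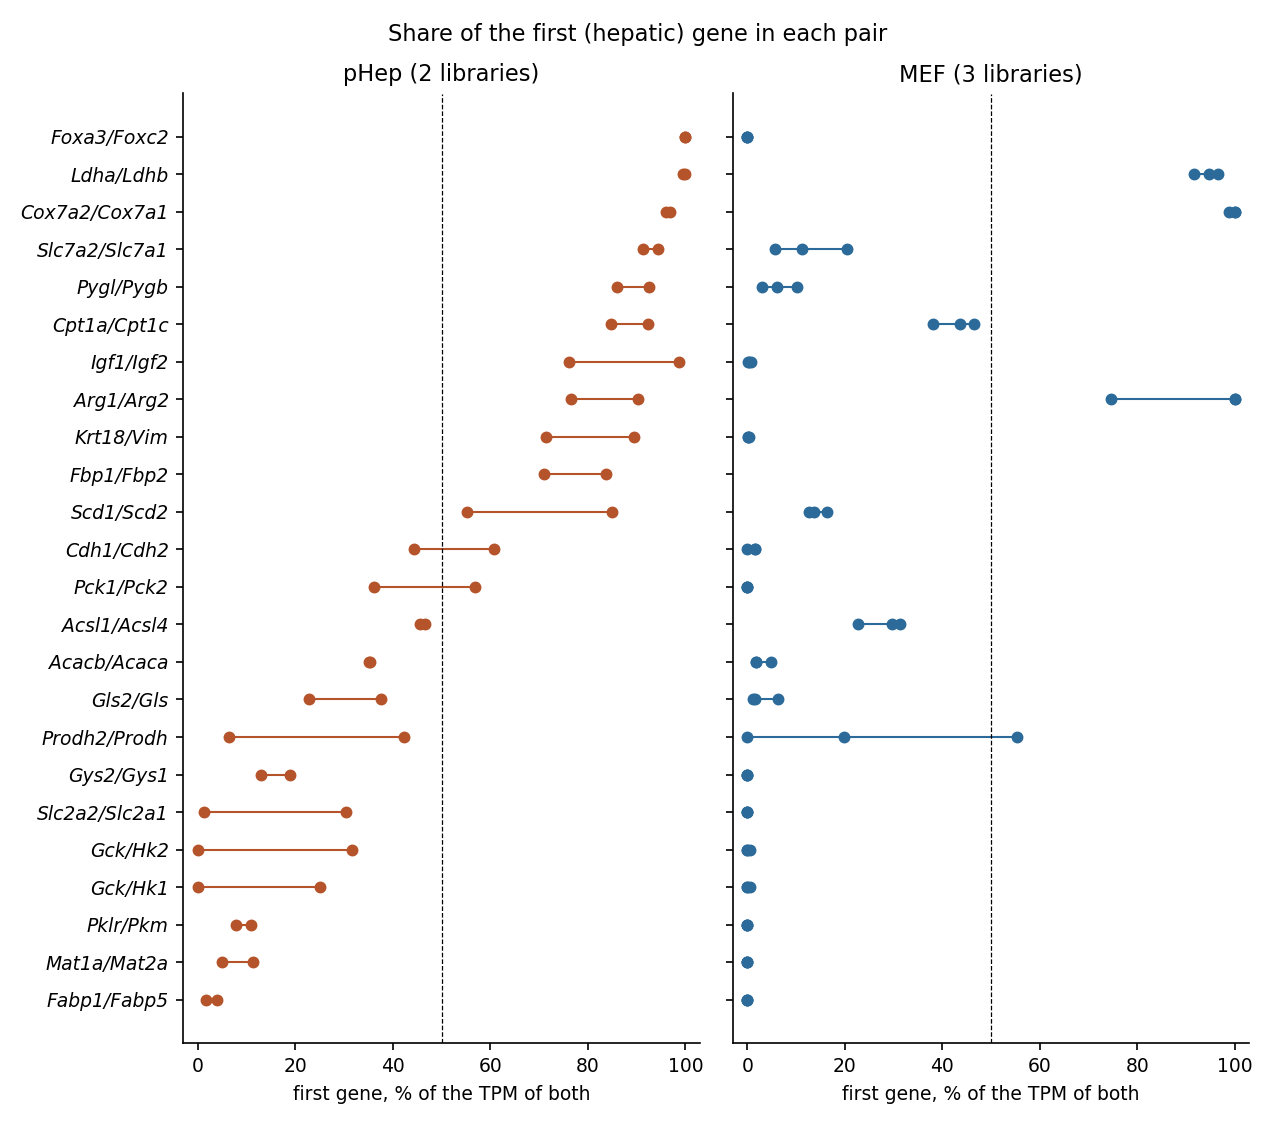
Share of the hepatic gene in the summed TPM of each pair, one point per library joined by a line, pHep left and MEF right, with the dashed line at equal TPM. In pHep 11 pairs lie wholly right of the line and 11 wholly left of it, and Fbp1/Fbp2 has no MEF value since both genes had 0 TPM there.

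Iron, copper and heme genes moved in part. Of 17 tested members, 10 rose and 1 fell, with a median log2 fold change of 1.91. Fth1, the heavy chain of the iron store ferritin, had 3023 and 2234 CPM in pHep and 407, 378 and 405 CPM in MEF (log2 fold change 2.73 ± 0.23, edgeR adjusted p = 1.67e-07), whereas Ftl1, its light chain, had 3528 and 2289 CPM in pHep and 3051, 2569 and 2873 CPM in MEF and was not called (95% interval of the log2 fold change -0.37 to 0.45). Tfr2, the iron-sensing transferrin receptor of hepatocytes, had 129 and 163 CPM in pHep and 0.654, 1.92 and 0.82 CPM in MEF (log2 fold change 6.90 ± 0.54). Tfrc, the uptake receptor of proliferating cells, fell and had 87.7 and 45.4 CPM in pHep and 240.2, 124 and 119 CPM in MEF (log2 fold change -1.26 ± 0.37), a call lost without pHep 2 (log2 fold change -0.90 and edgeR adjusted p = 0.142) and without MEF 1 (log2 fold change -0.86 and edgeR adjusted p = 0.0555). Mt1, a metallothionein, had 1773 and 984 CPM in pHep and 37.6, 42.3 and 80.6 CPM in MEF (log2 fold change 4.69 ± 0.42). Of 25 tested selenium, vitamin and hormone genes, 17 rose and 4 fell, with a median log2 fold change of 5.07 (3.54 with members that lack counts in a group set at their bound). Sepp1, the plasma selenium carrier, had 3748 and 3477 CPM in pHep and 10.8, 8.09 and 11.5 CPM in MEF (log2 fold change 8.49 ± 0.73). Insr, the insulin receptor, had 219.7 and 166 CPM in pHep and 42.2, 49.2 and 46.5 CPM in MEF (log2 fold change 2.07 ± 0.18). The binding proteins of insulin-like growth factors split, since Igfbp1 rose while Igfbp5 had 1.25 and 2.55 CPM in pHep and 419.9, 895 and 1327 CPM in MEF (log2 fold change -8.88 ± 0.84) and Igfbp7 had 19.2 and 172 CPM in pHep and 634, 504 and 479 CPM in MEF (log2 fold change -2.51 ± 0.82). Igfbp7 was not called without pHep 1 (log2 fold change -1.74 and edgeR adjusted p = 0.121). Igfbp3, with 959 and 292 CPM in pHep and 56.2, 341 and 195 CPM in MEF, was not called.

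Genes of fetal growth were lower in the adult cells, with one exception. Of 15 tested members, 1 rose and 13 fell, with a median log2 fold change of -5.24. H19 (chr7:142575529-142578143, minus strand) had 23.4 and 21.4 CPM in pHep and 4429, 12114 and 5880.4 CPM in MEF (log2 fold change -8.38 ± 1.12, edgeR adjusted p = 2.03e-05). Igf2, the fetal growth factor beside it, had 8.77 and 42.3 CPM in pHep and 4760.4, 9443 and 5647 CPM in MEF (log2 fold change -8.04 ± 0.78). The groups did not overlap in H19 or in Igf2. Grb10, an imprinted adaptor that restrains insulin signalling, had 6.68 and 52 CPM in pHep and 1368, 2126 and 1446 CPM in MEF (log2 fold change -5.84 ± 0.75), and Igf2bp3, an oncofetal RNA-binding protein, had 7.94 and 6.12 CPM in pHep and 97.4, 114 and 82 CPM in MEF (log2 fold change -3.79 ± 0.25). Meg3, an imprinted noncoding RNA, had 2.51 and 18.9 CPM in pHep and 423, 824 and 809.5 CPM in MEF (log2 fold change -6.05 ± 0.87). MEF 2 was the highest library in all 5 of these genes. Afp, alpha-fetoprotein, which is made in fetal liver and mostly silenced after birth, was the exception. It had 405 and 462 CPM in pHep and 0, 0.213 and 0 CPM in MEF (6109-fold higher, 95% counting interval 881 to 194280, edgeR adjusted p = 1.98e-06), so its level was alike in both pHep libraries and 1 count was found in MEF.

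Epithelial genes rose with the hepatic ones. Of 28 tested members, 25 rose and 0 fell, with a median log2 fold change of 5.52 (4.43 with members that lack counts in a group set at their bound). Krt8 and Krt18 form the simple keratin filament of hepatocytes. Krt8 had 8207 and 4797 CPM in pHep and 4.58, 8.3 and 3.01 CPM in MEF (log2 fold change 10.22 ± 0.52, edgeR adjusted p = 2.59e-09), and Krt18 had 5869.9 and 3343 CPM in pHep and 10.46, 21.5 and 8.47 CPM in MEF (log2 fold change 8.39 ± 0.58). Cldn3, a tight junction claudin, had 199.6 and 196 CPM in pHep and 0 CPM in every MEF library (at least 754-fold higher), and Dsp, which anchors desmosomes, had 463 and 411 CPM in pHep and 3.27, 5.53 and 3.83 CPM in MEF (log2 fold change 6.66 ± 0.21). Both pHep libraries were close in these junction genes. Cdh1, E-cadherin, had 312 and 161 CPM in pHep and 1.31, 2.77 and 0 CPM in MEF (log2 fold change 7.32 ± 0.64), while Cdh2, N-cadherin, which hepatocytes also make, had 182 and 181 CPM in pHep and 229, 175 and 198 CPM in MEF and was not called (95% interval of the log2 fold change -0.90 to 0.61). Krt7 and Krt19, keratins of bile duct cells, had 65.2 and 47.9 CPM in pHep and 7.84, 13.6 and 10.9 CPM in MEF (log2 fold change 2.37 ± 0.47) and 366 and 135 CPM in pHep and 35.3, 20 and 12.6 CPM in MEF (log2 fold change 3.48 ± 0.40). Epcam, a progenitor and duct adhesion protein, had 1.67 and 2.55 CPM in pHep and 2.29, 1.49 and 0 CPM in MEF and was not called.

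**Figure D4:**
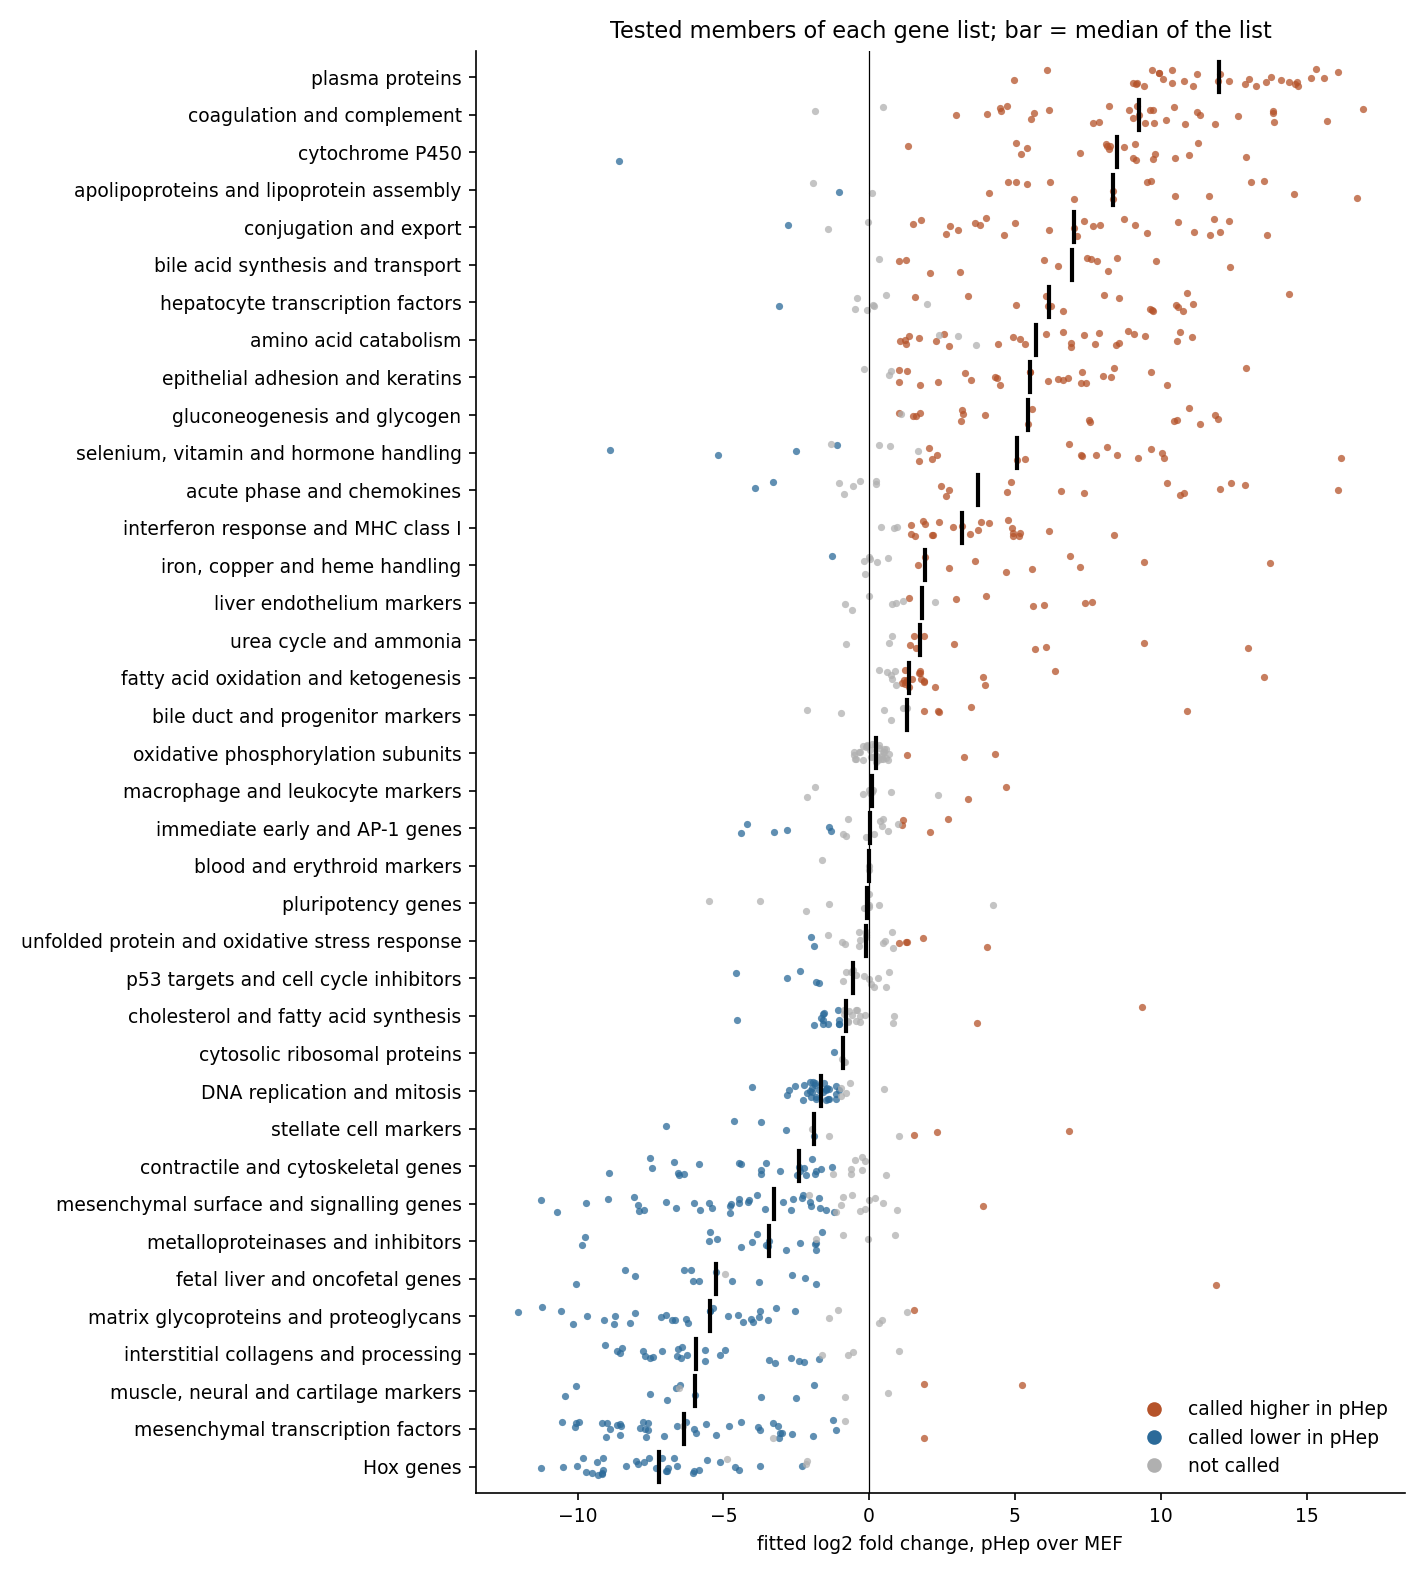
Fitted log2 fold change (pHep over MEF) of the tested members of each gene list, one point per gene coloured by call, with a bar at the median and the lists ordered by it. Fitted values of genes without counts in a group depend on the prior count, so the far ends are not measured folds. Plasma proteins lie highest at a median of 12.004 and Hox genes lowest at −7.21, and oxidative phosphorylation subunits cluster near 0.

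The interstitial collagens and the enzymes that process them fell. Of 28 tested members, 0 rose and 24 fell, with a median log2 fold change of -5.93. Col1a1 (chr11:94936224-94953042, plus strand) fell in pHep (log2 fold change -7.76 ± 1.16, edgeR adjusted p = 6.14e-05), with log2 fold change -11.18 and edgeR adjusted p = 1.13e-05 without pHep 2. Col1a2, the partner chain of type I collagen, had 1.25 and 92.8 CPM in pHep and 8506, 10272 and 9797 CPM in MEF (log2 fold change -7.68 ± 1.15), and Col3a1, of type III collagen, had 1.25 and 126 CPM in pHep and 1825, 4415 and 3041 CPM in MEF (log2 fold change -5.61 ± 1.35). In all 3 chains pHep 2 lay far above pHep 1 and far below MEF. The call of Col3a1 was lost where the MEF_ciEPC libraries entered the fit one by one. Col6a1, a chain of the microfibrillar type VI collagen, had 2.51 and 3.57 CPM in pHep and 992, 1521 and 1144 CPM in MEF (log2 fold change -8.66 ± 0.68), and Serpinh1, the collagen chaperone HSP47, had 6.26 and 50 CPM in pHep and 2638, 3362 and 2026 CPM in MEF (log2 fold change -6.60 ± 0.67). Loxl4, a collagen cross-linking oxidase, had 172 and 68.3 CPM in pHep and 65.4, 58.3 and 52.7 CPM in MEF and was not called. Of the list, 11 members were over 4-fold higher in pHep 2 than in pHep 1 and 1 over 4-fold higher in pHep 1. In bulk RNA fewer cells of a type and less RNA per cell cannot be told apart, so these values do not say whether collagen transcripts in pHep came from the hepatocytes.

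Other matrix genes fell with a few large exceptions. Of 35 tested members, 1 rose and 29 fell, with a median log2 fold change of -5.47 (-5.40 with members that lack counts in a group set at their bound). Sparc, a collagen-binding glycoprotein, had 29.2 and 134 CPM in pHep and 3214, 3994 and 3620.5 CPM in MEF (log2 fold change -5.47 ± 0.63, edgeR adjusted p = 4.4e-06). Bgn, the proteoglycan biglycan, had 2.92 and 94.4 CPM in pHep and 3915, 3709.8 and 3572 CPM in MEF (log2 fold change -6.28 ± 1.14), and Aspn, a related leucine-rich protein, had 0 CPM in both pHep libraries and 85, 102 and 131 CPM in MEF (at least 154-fold lower). Fn1, fibronectin, circulates in plasma as a hepatocyte product and is deposited as matrix by fibroblasts. It had 12621 and 20535 CPM in pHep and 12319, 10140 and 13872 CPM in MEF and was not called (95% interval of the log2 fold change -0.17 to 1.07). Nid1, a basement membrane linker, had 2258 and 1468 CPM in pHep and 1769, 1405 and 1281 CPM in MEF and was not called (95% interval of the log2 fold change -0.49 to 1.14). Both genes were thus high in every library of either group. Spp1, osteopontin, had 1509.9 and 597 CPM in pHep and 388, 196 and 701 CPM in MEF and was not called. Ecm1 rose, with 326 and 179.5 CPM in pHep and 107, 68.9 and 84.2 CPM in MEF (log2 fold change 1.55 ± 0.60). That call was lost without pHep 1 (log2 fold change 0.96 and edgeR adjusted p = 0.321) and without any of the MEF libraries (edgeR adjusted p = 0.062, 0.121 and 0.0951). Of 21 tested metalloproteinases and inhibitors, 0 rose and 17 fell, with a median log2 fold change of -3.43. Timp2, an inhibitor of metalloproteinases, had 8.77 and 25.5 CPM in pHep and 665, 796 and 781 CPM in MEF (log2 fold change -5.47 ± 0.64), and Adam19, a sheddase, had 2.92 and 16.8 CPM in pHep and 409, 333 and 317 CPM in MEF (log2 fold change -5.21 ± 0.56). Plat, tissue plasminogen activator, had 177 and 339.7 CPM in pHep and 109, 166 and 147 CPM in MEF and was not called (95% interval of the log2 fold change 0.21 to 1.53).

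Most contractile and cytoskeletal genes fell. Of 32 tested members, 0 rose and 24 fell, with a median log2 fold change of -2.39. Acta2, smooth muscle alpha-actin, had 1.25 and 69.9 CPM in pHep and 8988, 5728 and 4631 CPM in MEF (log2 fold change -7.53 ± 0.99, edgeR adjusted p = 1.74e-05). Actg2, a smooth muscle gamma-actin, had 0 and 1.53 CPM in pHep and 479, 339.6 and 231 CPM in MEF (457-fold lower, 95% counting interval 169.8 to 2409), and Tgfb1i1, a focal adhesion protein, had 0 and 3.57 CPM in pHep and 318, 305 and 235 CPM in MEF (log2 fold change -7.44 ± 0.61). In all 3 genes nearly everything found in pHep was in pHep 2. Cnn2 had 27.1 and 67.8 CPM in pHep and 1172, 976 and 794 CPM in MEF (log2 fold change -4.38 ± 0.39), and Actg1 had 1322 and 1362 CPM in pHep and 7277, 5867 and 5061 CPM in MEF (log2 fold change -2.18 ± 0.24). Vim, the mesenchymal filament vimentin, fell but remained well above 0, with 698 and 1249 CPM in pHep and 6311, 4992 and 4266 CPM in MEF (log2 fold change -2.41 ± 0.45). Actb, another cytoplasmic actin gene, had 3648 and 2530.3 CPM in pHep and 4559.7, 3412 and 3092 CPM in MEF and was not called (95% interval of the log2 fold change -0.76 to 0.25). Myh9, nonmuscle myosin, had 2299 and 2832 CPM in pHep and 3732, 2656 and 2684 CPM in MEF and was not called (95% interval of the log2 fold change -0.71 to 0.23). In this list 6 members were over 4-fold higher in pHep 2 than in pHep 1 and 0 over 4-fold higher in pHep 1.

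Transcription factors of mesenchyme and of body position fell in most members. Of 42 tested mesenchymal transcription factors, 1 rose and 38 fell, with a median log2 fold change of -6.33 (-4.00 with members that lack counts in a group set at their bound). Prrx1, a homeobox factor of limb and skin mesenchyme, had 0.835 and 2.04 CPM in pHep and 595, 446 and 534 CPM in MEF (log2 fold change -8.54 ± 1.03, edgeR adjusted p = 1.02e-05). Twist1 and Twist2, regulators of mesenchymal fate, had 0.835 and 1.53 CPM in pHep and 76.5, 81.3 and 70 CPM in MEF (log2 fold change -6.01 ± 0.44) and 0 and 1.02 CPM in pHep and 116, 93.2 and 109 CPM in MEF (208-fold lower, 95% counting interval 62.9 to 1882). Tbx15, a T-box factor of skin and skeleton, had 0 and 0.51 CPM in pHep and 91.8, 114 and 98.4 CPM in MEF (397-fold lower, 95% counting interval 80.3 to 17731). Sox9, which also marks bile duct cells, was the member that rose, with 93.6 and 85.7 CPM in pHep and 19, 35.3 and 17.5 CPM in MEF (log2 fold change 1.89 ± 0.33). Of 36 tested Hox genes, 0 rose and 33 fell, with a median log2 fold change of -7.21 (-4.39 with members that lack counts in a group set at their bound). In pHep 27 of the 39 members of the list had 0 counts, so a rise was not open to those. Hoxb9 had 0 CPM in both pHep libraries and 67, 55.3 and 62.6 CPM in MEF (at least 89.5-fold lower, edgeR adjusted p = 4.42e-07), Hoxc6 had 0 CPM in both pHep libraries and 32, 31.1 and 47.3 CPM in MEF (at least 53.4-fold lower) and Hoxa10 had 0.418 and 0 CPM in pHep and 27.5, 27.7 and 24.3 CPM in MEF (127-fold lower, 95% counting interval 20.6 to 4579.5). The highest level of any Hox gene in a pHep library was 1.53 CPM, that of Hoxa2 in pHep 2.

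Surface and signalling genes of mesenchyme fell less uniformly. Of 46 tested members, 1 rose and 34 fell, with a median log2 fold change of -3.25 (-3.03 with members that lack counts in a group set at their bound). Pdgfrb, a receptor of platelet-derived growth factor, had 0 and 8.67 CPM in pHep and 456, 498 and 570.1 CPM in MEF (log2 fold change -6.98 ± 0.59), and Fzd2, a Wnt receptor, had 0 and 1.53 CPM in pHep and 156, 209.6 and 208 CPM in MEF (249.7-fold lower, 95% counting interval 96.5 to 1371, edgeR adjusted p = 3.38e-08). What pHep held of both lay in pHep 2. Ror2, a Wnt receptor kinase among the largest falls, had 0 CPM in both pHep libraries and 49, 88.5 and 47.6 CPM in MEF (at least 89.6-fold lower, edgeR adjusted p = 2.82e-06). Lrrc17, a secreted leucine-rich repeat protein, stood first among the falls by fitted log2 fold change, with 0 CPM in both pHep libraries and 249.7, 447 and 286 CPM in MEF (at least 476-fold lower, edgeR adjusted p = 2.86e-07), and Cspg4, a proteoglycan of pericytes and progenitors, followed with 0 CPM in both pHep libraries and 201, 157 and 116 CPM in MEF (at least 229.7-fold lower). Dnm3os, a noncoding RNA that hosts microRNAs of skeletal growth, had 0 CPM in both pHep libraries and 60.5, 42.1 and 193 CPM in MEF (at least 143-fold lower). Counts in pHep were 0 for Ror2, Lrrc17, Cspg4 and Dnm3os. Their rank depends on the prior count, and genes with counts in pHep, such as Thy1, are not ranked against these bounds. Ctgf and Cyr61, matricellular targets of YAP, were not called and had 1749 and 2814 CPM in pHep and 2878, 1048 and 1024 CPM in MEF and 297 and 731 CPM in pHep and 1352, 1030.4 and 618 CPM in MEF. In Ctgf both pHep libraries lay within the range of MEF, and in Cyr61 pHep 1 lay below it.

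Proliferation genes were lower in pHep than in the growing MEF. Of 36 tested DNA replication and mitosis genes, 0 rose and 31 fell, with a median log2 fold change of -1.65. Top2a, the topoisomerase of mitotic chromosomes, had 139.5 and 45.4 CPM in pHep and 436, 420.1 and 375 CPM in MEF (log2 fold change -2.14 ± 0.36, edgeR adjusted p = 0.000165). Rrm1, a subunit of ribonucleotide reductase, had 102 and 49.5 CPM in pHep and 404, 359.9 and 308 CPM in MEF (log2 fold change -2.23 ± 0.25), and Ccnd2, a G1 cyclin, had 9.19 and 85.2 CPM in pHep and 929, 531 and 817 CPM in MEF (log2 fold change -4.03 ± 0.71). pHep 1 lay above pHep 2 in Top2a and Rrm1 and below it in Ccnd2. Over the list the median of log2 pHep 1 over pHep 2 was 1.55, and 10 members were over 4-fold higher in pHep 1 and 2 in pHep 2. The fall depended on the fibroblasts chosen, since against MNF the list had 7 higher and 2 lower. Of 17 tested p53 targets and cell cycle inhibitors, 0 rose and 5 fell, with a median log2 fold change of -0.55. Over all tested genes 17% rose and 17.2% fell, and this list was not tested against these shares. Cdkn2a, the senescence locus of Ink4a and Arf, had 0.835 and 0.51 CPM in pHep and 16, 9.58 and 26 CPM in MEF (25.5-fold lower, 95% counting interval 8.1 to 118, edgeR adjusted p = 5.29e-05), and Cdkn2b, its neighbour, had 16.3 and 21.4 CPM in pHep and 65.7, 48.7 and 71.3 CPM in MEF (log2 fold change -1.72 ± 0.35). Cdkn1a, the p53 target p21, had 221 and 305 CPM in pHep and 347, 271 and 268 CPM in MEF and was not called (95% interval of the log2 fold change -0.68 to 0.34).

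Antigen presentation and interferon genes rose against MEF. Of 25 tested members, 22 rose and 0 fell, with a median log2 fold change of 3.19. H2-K1 and H2-D1, classical MHC class I genes, had 1273 and 718 CPM in pHep and 36.6, 28.3 and 33.6 CPM in MEF (log2 fold change 4.92 ± 0.26, edgeR adjusted p = 3.95e-09) and 1173 and 1229 CPM in pHep and 42.2, 40.9 and 37.4 CPM in MEF (log2 fold change 4.90 ± 0.18). B2m, their common light chain, had 1021 and 977 CPM in pHep and 264, 261 and 261 CPM in MEF (log2 fold change 1.93 ± 0.22), and Irf7, a master factor of type I interferon, had 95.6 and 118 CPM in pHep and 0.654, 2.34 and 1.09 CPM in MEF (log2 fold change 6.16 ± 0.42). In each of these 4 genes the pHep libraries differed by less than 2-fold. Against MNF 10 members were higher and 1 lower. Acute phase and chemokine genes moved both ways. Of 22 tested members, 14 rose and 2 fell, with a median log2 fold change of 3.75. Saa3, an inflammation-induced serum amyloid gene, had 6.68 and 274 CPM in pHep and 0 CPM in every MEF library (at least 534-fold higher), so nearly all of it was in pHep 2. Fgl1, a hepatocyte secreted protein, had 89.8 and 282 CPM in pHep and 0.327, 0 and 0 CPM in MEF (1704-fold higher, 95% counting interval 359.9 to 79532). Cxcl12, a chemokine of mesenchyme, fell and had 38.8 and 42.3 CPM in pHep and 282, 464 and 462 CPM in MEF (log2 fold change -3.31 ± 0.41, edgeR adjusted p = 1.42e-05).

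Stress genes gave no uniform direction. Over all tested genes 17% rose and 17.2% fell, and neither stress list was tested against these shares. Of 20 tested immediate early genes, 4 rose and 6 fell, with a median log2 fold change of 0.02. Dusp1, a phosphatase that ends MAP kinase signalling, had 306 and 388 CPM in pHep and 88.6, 118 and 38 CPM in MEF (log2 fold change 2.09 ± 0.53). Egr1, an early growth response factor, had 147 and 230 CPM in pHep and 244, 570.1 and 109.9 CPM in MEF and was not called, with MEF 2 the highest. Of 20 tested unfolded protein and oxidative stress genes, 5 rose and 2 fell, with a median log2 fold change of -0.10. Gclc, which limits glutathione synthesis, had 630.3 and 836 CPM in pHep and 46.7, 41.3 and 45.9 CPM in MEF (log2 fold change 4.04 ± 0.19, edgeR adjusted p = 1.34e-09). Hspa5, the main chaperone of the endoplasmic reticulum, had 1529.5 and 2837 CPM in pHep and 1586, 1569 and 1585 CPM in MEF and was not called (95% interval of the log2 fold change -0.16 to 1.10). Asns, asparagine synthetase, fell and had 10 and 92.8 CPM in pHep and 195, 186 and 225 CPM in MEF (log2 fold change -1.99 ± 0.59), and the change was smaller without pHep 1 (log2 fold change -1.21 and edgeR adjusted p = 0.0448).

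Markers of other cell types that a liver or embryo preparation can hold were found at varied levels. The 22 macrophage and leukocyte markers summed to 96.9 and 168 CPM in pHep and 64.4, 45.1 and 65.9 CPM in MEF, and 5 of them were at 0 in both pHep libraries and 6 in all MEF libraries. Clec4f, Marco and Cd5l, markers of liver macrophages, had 0 counts in pHep 1 and in MEF, and 6.12, 4.08 and 5.10 CPM in pHep 2. The 16 liver endothelium markers summed to 126 and 158 CPM in pHep and 58.5, 74.3 and 68.9 CPM in MEF, and 7 of 14 tested rose. Stab2, a scavenger receptor of sinusoidal endothelium, had 12.5 and 12.2 CPM in pHep and 0, 0.426 and 0 CPM in MEF (87.3-fold higher, 95% counting interval 18.7 to 599). Several of the other calls were less stable. Pecam1, an endothelial adhesion molecule, had 14.2 and 8.67 CPM in pHep and 0.654, 0.851 and 0.547 CPM in MEF and was not called without any one library (edgeR adjusted p = 0.0745 to 0.196). Stab1, a relative of Stab2, had 24.6 and 26.5 CPM in pHep and 8.5, 7.24 and 14.2 CPM in MEF and was not called without pHep 1, pHep 2, MEF 1 or MEF 2 (edgeR adjusted p = 0.0565 to 0.079). Fcgr2b, an Fc receptor, had 7.52 and 18.9 CPM in pHep and 1.31, 0.213 and 3.55 CPM in MEF and was not called without pHep 2 (log2 fold change 2.14 and edgeR adjusted p = 0.126). The 12 stellate cell markers summed to 361 and 378 CPM in pHep and 927, 1086 and 997 CPM in MEF, with Ecm1 the most abundant in pHep. Lrat, the retinol-esterifying enzyme of stellate cells, had 0 and 6.12 CPM in pHep and 0 CPM in every MEF library (at least 11.6-fold higher). It had 0 counts in all libraries but pHep 2, and without any one MEF library it was not called (edgeR adjusted p = 0.0739 to 0.0911). Of the stellate cell markers 6 were over 4-fold higher in pHep 2 than in pHep 1, as were 11 of the 28 collagen genes. The part of these cells in the collagen values of pHep 2 was not tested.

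The 12 bile duct and progenitor markers summed to 2212 and 1171 CPM in pHep and 565, 394 and 869 CPM in MEF. In pHep Spp1 was the largest part of the sum, and 5 of 11 tested rose, among them Krt19, Krt7, Sox9 and Prom1. Prom1 was not called without pHep 2 (log2 fold change 0.14 and edgeR adjusted p = 0.971), without MEF 1 (log2 fold change 2.02 and edgeR adjusted p = 0.0839) or without MEF 2 (log2 fold change 2.48 and edgeR adjusted p = 0.0583). Erythroid markers summed to at most 2.92 CPM in any of the 5 libraries. The 18 muscle, neural and cartilage markers summed to 162 and 212 CPM in pHep and 548, 1412 and 427 CPM in MEF. MEF 2 was the highest, with 656 CPM of Col2a1, a cartilage collagen, and 93.4 CPM of Actc1, a cardiac and embryonic muscle actin. Pluripotency genes summed to 2.51 and 0.510 CPM in pHep and 11.4, 5.96 and 1.91 CPM in MEF, and none of the 10 tested was called with edgeR.

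Few genes of oxidative phosphorylation were called. Of 35 tested members of the list, 3 rose and 0 fell, with a median log2 fold change of 0.25. Over all tested genes 17% rose and 17.2% fell. Both pHep libraries lay above all MEF libraries in 18 of the 35 members and below them in 5. Over all tested genes these shares were 28.6% and 32.7%, and the list was not tested against them. The 3 called rises were the subunits Ndufa1 and Cox7a1, and Ppargc1a, which is not a subunit. Cox7a1 had 6.81 and 11.3 TPM in pHep and 0, 2.48 and 0 TPM in MEF. Its call was lost in 6 alternatives, among them leaving out MEF 1 or MEF 3. Atp5b, the catalytic subunit of ATP synthase, had 1693 and 1269 CPM in pHep and 1680, 1439 and 1232 CPM in MEF and was not called (95% interval of the log2 fold change -0.40 to 0.46). Ppargc1a, a coactivator that drives mitochondrial and gluconeogenic genes, rose and had 13.8 and 8.16 CPM in pHep and 0.327, 0.426 and 0.82 CPM in MEF (log2 fold change 4.33 ± 0.68). Among genes chosen because their 95% interval lay within 2-fold, the most abundant included Actb, Ftl1, Ppia, a peptidyl-prolyl isomerase, and Hsp90ab1, a cytosolic chaperone. Ppia had 2102 and 1137 CPM in pHep and 1979, 2015 and 1600.5 CPM in MEF (95% interval of the log2 fold change -0.79 to 0.39), and Hsp90ab1 had 2533 and 1732 CPM in pHep and 3179, 3237 and 2664 CPM in MEF (95% interval of the log2 fold change -0.94 to -0.07). Of 4 cytosolic ribosomal protein genes in the table, Rplp1 fell, with 895 and 423 CPM in pHep and 1754, 1512 and 1276 CPM in MEF, and the others were not called, with a median log2 fold change of −0.90 over the 4. Without pHep 2 the change of Rplp1 was under 2-fold (log2 fold change -0.79 and edgeR adjusted p = 0.0277). The remaining ribosomal protein genes were not analysed here.

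With MNF in place of MEF, 2445 genes were higher in pHep (15.2%) and 2702 lower (16.8%). The secretory lists gave almost the same counts, with 32 higher and 0 lower among plasma proteins and 30 higher and 0 lower among coagulation and complement genes. Collagens had 0 higher and 27 lower, matrix genes 1 higher and 31 lower and Hox genes 0 higher and 28 lower. Contractile genes had 4 higher and 17 lower, mesenchymal transcription factors 1 higher and 30 lower, muscle, neural and cartilage markers 3 higher and 2 lower, and fatty acid oxidation genes 13 higher and 0 lower. Counts also changed in the lists of DNA replication, interferon response and cholesterol synthesis, given above. The difference between the fibroblast groups was not tested.

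**Figure D5:**
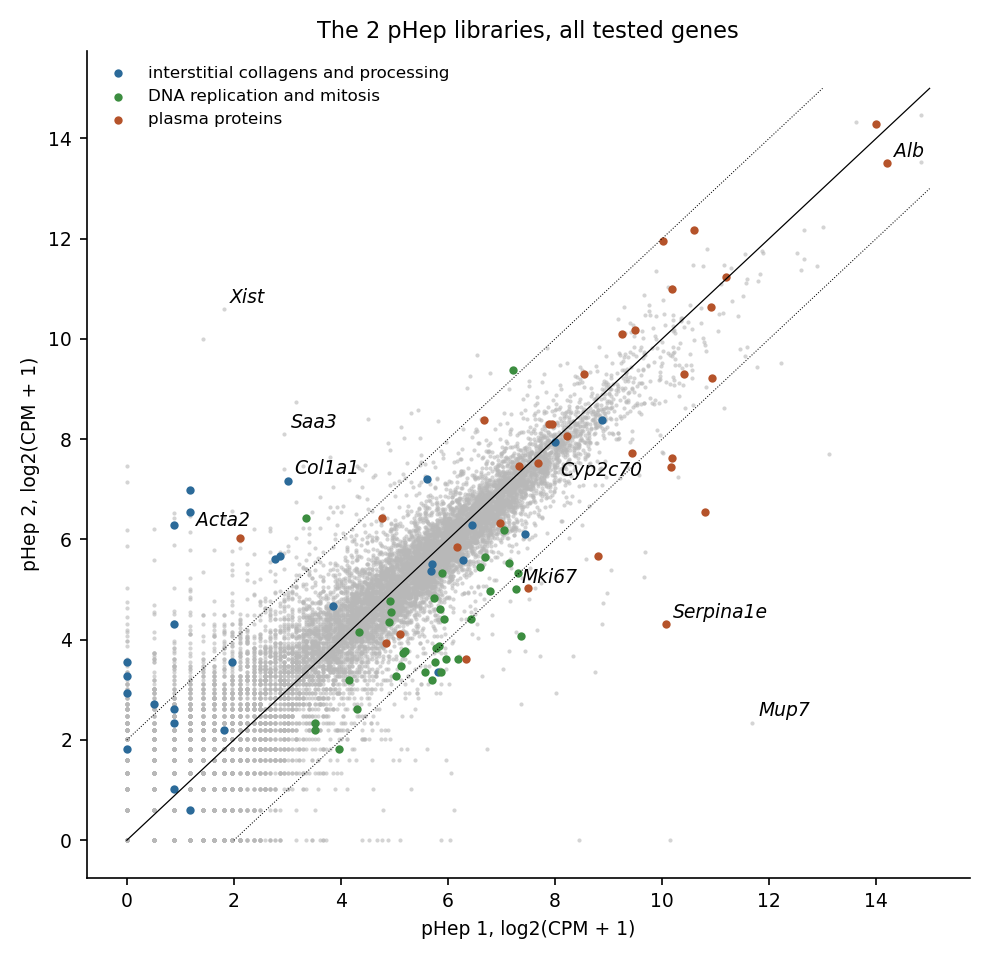
Level of each tested gene in pHep 1 (horizontal) and pHep 2 (vertical) as log2(CPM + 1), with lines at equality and at 4-fold, and members of 3 lists in colour. Several collagen genes lie over 4-fold higher in pHep 2, and several plasma protein and replication genes over 4-fold higher in pHep 1.

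The pHep libraries differed from each other more than the MEF libraries did. Over 4-fold apart on the log2(CPM + 1) scale were 671 tested genes, 222 of them higher in pHep 1 and 449 higher in pHep 2, against 53 to 162 genes between pairs of MEF libraries. Of the 671 genes 404 were called between pHep and MEF. Leaving out 1 library moved the fitted fold of 157 of 297 named called genes by over 1.5 times, most often without pHep 2 (107 genes) or pHep 1 (94 genes), and for MEF 2 in 37 genes. Among 26 tested hepatocyte transcription factors, 28 epithelial genes and 35 members of the oxidative phosphorylation list, 0 were over 4-fold apart. Over all tested genes the count was 671 of 16061, so few would be found in lists this short. Other lists also had 0, among them cholesterol and fatty acid synthesis, mesenchymal transcription factors and Hox genes.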

How the data were processed

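Bulk RNA of 5 libraries was compared, 2 of pHep and 3 of MEF, with 2 of MNF as a second set of fibroblasts. Per the labels' protocols Trizol was used for extraction and an Illumina TruSeq kit for the libraries. The authors deposited RSEM expected counts (estimated counts per gene, not normalized) and TPM (scaled for length and depth), made with RSEM 1.2.4 on mm10, per the submitters' processing notes. Which aligner and gene annotation were used is not given in the sources used here.

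Groups followed the title or the cell type label of each sample. After rounding to whole numbers, the expected counts of all 9 groups entered 1 model of 20 samples, in which the MEF_ciEPC libraries were summed to 2 series. The model was edgeR's quasi-likelihood test (edgeR 4.0.16, R 4.3.3) with TMM scaling, on genes that passed filterByExpr at a minimum count of 10. Its common biological coefficient of variation came to 0.249, with 4.46 prior degrees of freedom. Calls needed a Benjamini-Hochberg adjusted p under 0.05 over all 16061 tested genes and at least 2-fold. A gene without counts in MEF could be tested only where other groups held enough counts. Counts of tested members thus leave out members with too few counts in the series. Values after ± are standard errors of the fitted log2 fold change (n = 2 and n = 3). The spread behind these errors and the p-values was estimated over all 20 samples, not over pHep and MEF alone. Since the pHep libraries lay further apart than the MEF libraries, that shared estimate may be too small for pHep. A group with 0 counts gave a bound at 3 counts over the group, and a group with 1 to 3 counts a ratio whose 95% counting interval is exact (Clopper-Pearson). Tested on simulated data, the model called 20 of 67 genes that had been changed by 2-fold. Among genes changed by 4-fold it called 65 of 67, and by 8-fold 65 of 66. There were 4 false calls among 13886 genes. The simulated counts gave every gene the common spread and the same mean in all groups, apart from the genes changed in pHep. The changed genes were drawn only from genes above a minimum mean CPM in fibroblasts and embryonic stem cells. These figures thus do not cover changes in low genes, or genes or libraries with a larger spread.

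The 39 gene lists (907 genes) and 24 gene pairs are textbook knowledge. The members, lists, tests and alternatives were chosen with earlier results of these data known. Named genes were the 12 largest rises and 12 largest falls at 32 CPM or more without overlap, the 10 highest by mean TPM in each group, up to 6 best called, up to 4 most abundant and up to 5 uncalled or opposed members of each list, every pair and cell type marker, and the 10 most abundant genes within 2-fold. Some members and pairs are not reported here, though list counts include such members. Positions are from GENCODE M21 on GRCm38, in which 31426 of the 31673 identifiers were found. RefSeq promoters (GRCm38.p6) were matched by symbol and taken within 1000 bases of the GENCODE start, and motifs were searched on both strands of 300 bases. The 19 alternatives included RLE scaling, DESeq2 1.42.0, limma 3.58.1 on log2(TPM + 1), RSEM's effective lengths as offsets, other filters, folds and samples, a replicate block, and leaving out each library. A group left with 1 library is assumed to vary like the others. Libraries of 1 group differed beyond sampling noise, with a chi-square per degree of freedom of at least 9.94.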

Additional observations from a re-analysis of the deposited data

How the results depend on the processing

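The counts of 2731 higher and 2768 lower genes stayed within 1.5 times under 18 of 19 alternatives, and at a 4-fold minimum they were 1784 and 1738. With no fold minimum they were 3512 and 3933, with RLE scaling 2877 and 2606, with DESeq2 2763 and 2539, with limma on log2 TPM 2345 and 3009, and with effective lengths as offsets 2526 and 2805. Leaving out 1 library gave 2380 to 2658 higher and 2540 to 2741 lower genes. The labels state no pairing of pHep and MEF by replicate number, so the numbers were taken as names. Deviations from the group mean correlated across genes at 0.0717 and 0.0279 between libraries of the same number. Libraries of unlike number were not compared, so these values cannot settle whether a pairing exists. A fit of pHep and MEF with the replicate block gave 2089 and 2093 genes of 12729 tested.

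With MNF in place of MEF, 10 of the named genes that had been called turned sign. The log2 fold changes were Acan 3.34, Cdk1 0.70, Des 0.35, Mcm2 0.81, Mcm4 0.0220, Nes 1.62, Rrm2 1.73, Stat2 −0.14, Tfrc 1.59 and Top2a 0.0263. MNF are other cells, so this is another comparison rather than another treatment of the same libraries. Without pHep 2 the log2 fold change of Lrat was 0, since both groups then had 0 counts, and without pHep 1 it was 7.87. Against MNF another 38 named genes kept their direction but were no longer called, among them Fasn, Fah, Actg1, Rrm1, Col2a1 and Actc1. With the 10 MEF_ciEPC libraries as separate samples 28 were not, among them Col3a1, Krt7, Sox9, Cdkn2b and Asns. No other alternative turned the sign of a named called gene.

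Depth limits the low genes, since 3 counts over both pHep libraries are 0.689 CPM. With 2 pHep libraries that differ in sex-linked genes and in many others, each p rests on few samples. Read length, strain, age, tissue and culture moved with the groups, and their part was not tested.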

Other observations

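Some genes lay far apart between the pHep libraries, and they are given as values, chosen after they were seen. The urinary protein genes beside Mup7 had 1135 and 0 CPM in pHep and 0 CPM in every MEF library for Mup14, and 106 and 2.55 CPM in pHep and 0 CPM in every MEF library for Mup16. Serpina1e, an alpha-1-antitrypsin copy, had 1081 and 18.9 CPM in pHep and 0 CPM in every MEF library, and Ces1c, a plasma carboxylesterase, had 163 and 5.61 CPM in pHep and 0 CPM in every MEF library. Tff1, a trefoil peptide of mucous epithelium, had 469.9 and 18.9 CPM in pHep and 0 CPM in every MEF library. All of these were higher in pHep 1. Cd36, a fatty acid transporter, had 7.94 and 426 CPM in pHep and 2.61, 2.34 and 1.91 CPM in MEF, and Cyp2a4, a steroid hydroxylase, had 0.835 and 91.3 CPM in pHep and 0 CPM in every MEF library. Mmp12, the macrophage elastase, had 2.51 and 85.2 CPM in pHep and 0.98, 1.49 and 0.82 CPM in MEF, and Postn, a matrix protein of activated fibroblasts, had 1.25 and 87.7 CPM in pHep and 976, 1149 and 1650.2 CPM in MEF. These 4 were higher in pHep 2. Gvin1, an interferon-induced GTPase with near-identical copies, had 347 and 0 CPM in pHep and 0, 1.92 and 3.83 CPM in MEF, and Tgtp2, another interferon-induced GTPase, had 0 and 175 CPM in pHep and 3.59, 1.06 and 0.273 CPM in MEF. The first was high in pHep 1 and the second in pHep 2. The Mup and Cyp2a genes also have near-identical copies.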
